A study of Mus musculus with 12 samples.

Results

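The 10 core cardiac transcription factor genes followed here were Gata4, Gata6, Mef2a, Mef2c, Mef2d, Tbx5, Tbx20, Nkx2-5, Irx4 and Hand2. They were measured in cardiomyocytes (CMs), the cells whose contraction makes the heart beat, after depletion of serum response factor (SRF, encoded by Srf). The genes were picked by symbol, as GATA, MEF2, T-box, homeobox and bHLH factors of the heart. All 10 were found among the 23337 genes of the count tables, and all 10 passed the filter on low counts in every comparison. RNA came from 12 samples in 4 groups of 3. P14 CTRL and P14 KO CMs came from Srf-flox/+ and Srf-flox/flox mice that received AAV9-cTNT-Cre at postnatal day 1 (P1), and were collected at P14. P90 CTRL and P90 KO CMs came from the same genotypes, injected at P60 and collected at P90. In this virus the cardiac troponin T promoter restricts Cre recombinase to CMs. All 4 groups received it, all carried a fluorescent reporter that Cre switches on, and CTRL CMs therefore also lost the floxed copy of Srf but kept an intact one. The virus dose was low, so that recombined CMs lay among unrecombined ones in the same heart, and reporter-positive cells were sorted by flow cytometry. Values are therefore those of sorted cells from a mosaic heart of mixed genetic background, not of a heart in which every CM lacked SRF.

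These factors bind short DNA sequences in the promoters and enhancers of heart muscle genes and also bind one another, so that a given gene is usually read by several of them at once. GATA4, NKX2-5, TBX5, MEF2C and HAND2 are best known for specifying heart muscle in the embryo, and several of the genes are mutated in inherited heart defects. SRF binds a sequence called the CArG box and shares many muscle genes with GATA4, NKX2-5 and the SRF cofactor myocardin. Whether the genes for these partners changed when SRF was lost, and whether that differed between the stages, is what the 4 groups allow to be compared. The stages differ in age at injection, but also in time from injection to collection (P1 to P14 against P60 to P90). Pups were injected under the skin and adults into the peritoneum.

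Total counts were 9740389 to 23103460 per sample. A floor of 3 counts corresponded to 0.130 to 0.308 CPM (counts scaled to library size, here with TMM factors over all 12 samples), and the lowest count of any of the 10 genes was 74, for Hand2 in P90 CTRL replicate 2. These floors cover counting error only, since reads carried no molecular identifiers. The targeted gene, Srf (chr17:46546839-46556162, mm10), measured 63.9, 57.1 and 49.4 CPM in P14 CTRL and 32.1, 27.5 and 9.74 CPM in P14 KO, where replicate 3 stood lowest. It measured 71.1, 59.1 and 81.1 CPM in P90 CTRL and 32.8, 28.9 and 28.1 CPM in P90 KO. The KO samples thus lay below the CTRL samples at both stages, at 40.7% of the CTRL mean at P14 and 42.5% at P90. The authors found SRF missing from most reporter-positive CMs by immunostaining and proposed imperfect sorting of large CMs for the smaller RNA loss. KO samples may thus hold cells that kept Srf, and their part in the KO values was not tested. The log2 fold change was -1.30 ± 0.36 (SE) at P14 (adjusted p = 0.0628) and -1.23 ± 0.13 at P90 (adjusted p = 0.00347). Without P14 KO replicate 3 the P14 value was -0.92 (adjusted p = 0.0474). This was the only 1 of the 6 fits leaving out a P14 sample in which Srf passed 0.05, and their adjusted p reached 0.147. Srf passed in 5 of 14 fits at P14 and 13 of 14 at P90. Since even the targeted gene missed the threshold at P14, a member that missed it was not shown to be unchanged. The CM markers Myh6, Tnnt2, Tnni3, Actn2, Pln and Ryr2 summed to 57920 to 89900 CPM in all 12 samples. Marker lists of other cells summed to at most 1731 CPM (smooth muscle and pericyte), 525.3 CPM (endothelial), 349.2 CPM (fibroblast), 24.0 CPM (leukocyte) and 11.6 CPM (epicardial). The largest of these was mostly Acta2 and Abcc9 (means of 1088 and 384.3 CPM in P14 CTRL), beside Myh11 at 17.9 and Tagln at 5.88 CPM. What part of it came from smooth muscle cells or pericytes was not tested. P14 CTRL replicate 2 differed most from the others of its group (chi-square per gene of 45.5 and 51.9), where the other pairs within groups had 9.72 to 24.4.

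Most of these genes lay near their CTRL level in KO CMs. At P14, Hand2 was higher in KO by 1.59-fold (95% interval 1.26 to 2.01) and was the only member of the 10 past an adjusted p of 0.05 in edgeR's quasi-likelihood test, against 8.59% of all 12546 genes tested in that comparison (3.99% higher, 4.60% lower). Gata6 (1.33-fold) and Gata4 (1.30-fold) also lay higher in every P14 KO sample than in any P14 CTRL sample, without passing the threshold. So 3 of 10 members did not overlap between the groups, all 3 of them higher in KO, where 32.7% of all genes did not overlap and 16.0% were higher without overlap. The other 7 members had absolute log2 fold changes under 0.2, and their CTRL and KO samples overlapped. The median log2 fold change of the 10 was 0.04, and that of all genes was 0.00. The members' share of calls was thus close to that of all genes.

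In adult CMs 0 of the 10 members passed the threshold, where 0.390% of all 11808 genes did. DESeq2 also called 0 members, where it called 3.90% of all genes. In edgeR 2 members, Gata6 and Hand2, had an unadjusted p under 0.05, as 16.2% of all genes had. The same pair did not overlap between P90 CTRL and P90 KO and lay higher in KO. In all, 21.6% of genes did not overlap and 10.4% were higher without overlap. The median log2 fold change of the 10 was 0.09, and that of all genes was 0.01. The CM marker list summed to 81030 to 89900 CPM in P90 CTRL and 72020 to 75270 CPM in P90 KO, without overlap. By group means, it was lower through Myh6 (55320 and 40550 CPM) and Ryr2 (1500 and 935.5 CPM). Tnnt2, Tnni3, Actn2 and Pln had higher means in P90 KO. The smooth muscle and pericyte list summed to 712.7 to 948.1 CPM and 521.0 to 603.0 CPM, also without overlap. It was mostly Abcc9 (means of 526.3 and 380.7 CPM) and Acta2 (237.4 and 113.3 CPM). Rgs5 was also slightly lower in P90 KO, whereas Myh11, Tagln, Pdgfrb and Kcnj8 had higher means there. The fibroblast list (52.1 to 73.3 CPM in CTRL, 53.1 to 72.4 CPM in KO), the endothelial list (233.9 to 304.0 and 240.9 to 357.7 CPM), the ventricular list and the atrial list overlapped, and 0 genes of any of these lists passed the threshold. The part of these differences in the values of Gata6 and Hand2 was not tested.

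**Figure D1:**
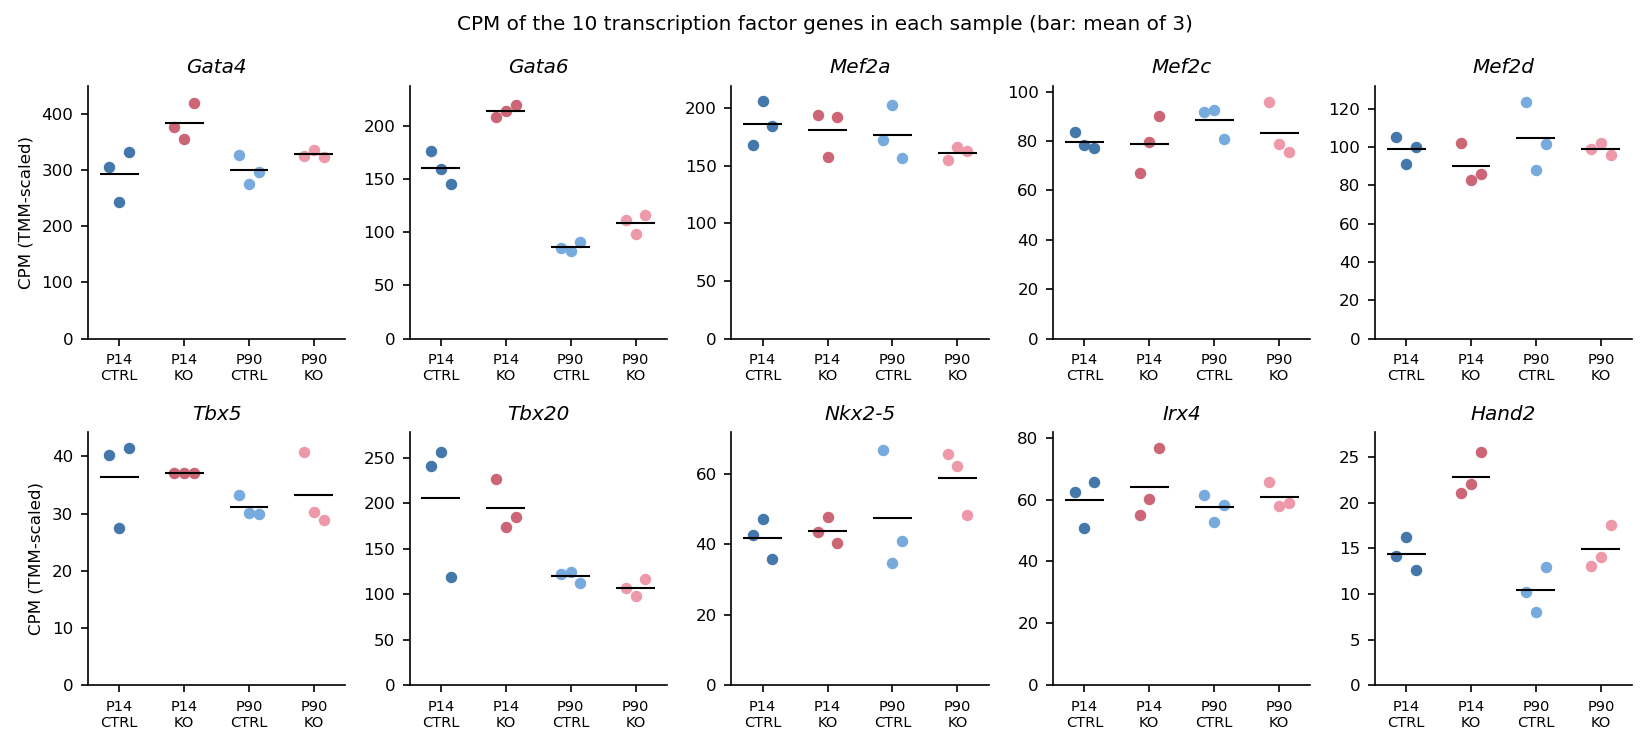
CPM of each of the 10 genes (vertical axis, from 0, its own scale in each panel) in the 12 samples, by group; points are samples and the black bar is the mean of 3. Gata4, Gata6 and Hand2 were higher in every P14 KO sample than in any P14 CTRL sample, and Gata6 separated P14 from P90 completely.

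Gata4 (chr14:63198915-63245260, minus strand) encodes a zinc finger factor of heart muscle that takes part in growth and stress responses. It measured 305, 244 and 332 CPM in P14 CTRL and 376, 355 and 419 CPM in P14 KO. It measured 326, 276 and 296 CPM in P90 CTRL and 325, 336 and 322 CPM in P90 KO. The P14 KO samples were the 3 highest of the 12, and at P90 the groups overlapped. Its log2 fold change was 0.38 ± 0.14 at P14 (95% interval 0.06 to 0.70, adjusted p = 0.130) and 0.14 ± 0.09 at P90 (-0.07 to 0.34, adjusted p = 0.510). The neonatal minus adult difference was 0.26 ± 0.17, with an interval of -0.10 to 0.62 and an adjusted p of 0.449.

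Gata6 (chr18:11052510-11085635, plus strand) encodes the other GATA factor abundant in heart muscle, which binds the same short sequence as GATA4 and overlaps with it in function. It measured 176, 159 and 145 CPM in P14 CTRL, against 208, 214 and 219 CPM in P14 KO. It measured 85.0, 82.4 and 90.8 CPM in P90 CTRL, against 111, 98.0 and 116 CPM in P90 KO. At each age all KO samples were above all CTRL samples, and all P14 samples were above all P90 samples. The KO difference was 0.41 ± 0.11 on the log2 scale at P14 (0.17 to 0.66, adjusted p = 0.0501) and 0.34 ± 0.10 at P90 (0.12 to 0.55, adjusted p = 0.145), and the stages differed by 0.09 ± 0.14 (-0.21 to 0.38, adjusted p = 0.786). The P14 value lay at the edge of the threshold. DESeq2 gave an adjusted p of 0.0133 and the fit of all 12 samples 0.0106, whereas leaving out any 1 sample gave 0.0556 to 0.164.

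The split between Gata4 and Gata6 was similar in both genotypes and differed between ages. Per length of exon (RPKM), Gata6 made up 36.9% ± 4.77 (SD, n = 3) of the summed Gata4 and Gata6 level in P14 CTRL and 37.3% ± 1.68 in P14 KO. In adult cells it made up 23.5% ± 1.54 in CTRL and 26.0% ± 2.05 in KO. Between ages the ranges did not overlap in either genotype.

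The MEF2 genes encode MADS-box factors, the same domain family as SRF, and activate muscle genes under the control of class II histone deacetylases and kinases. Mef2a (chr7:67233827-67372858, minus strand) measured 168, 206 and 185 CPM in P14 CTRL and 194, 158 and 192 CPM in P14 KO, then 172, 202 and 156 CPM in P90 CTRL and 155, 166 and 163 CPM in P90 KO. Mef2c (chr13:83504034-83667079, plus strand) measured 83.7, 78.3 and 77.3 CPM in P14 CTRL and 67.0, 79.5 and 90.2 CPM in P14 KO, then 91.6, 92.5 and 81.0 CPM in P90 CTRL and 96.0, 78.7 and 75.7 CPM in P90 KO. Mef2d (chr3:88142395-88169167, plus strand) measured 105, 91.0 and 99.9 CPM in P14 CTRL and 102, 82.9 and 85.7 CPM in P14 KO, then 123, 88.2 and 102 CPM in P90 CTRL and 99.0, 102 and 95.7 CPM in P90 KO. CTRL and KO samples of all 3 MEF2 genes overlapped at both ages. The KO differences at P14 were -0.04 (95% interval -0.34 to 0.26) for Mef2a, -0.02 (-0.31 to 0.27) for Mef2c and -0.13 (-0.40 to 0.14) for Mef2d on the log2 scale. At P90 they were -0.13 (-0.36 to 0.11), -0.08 (-0.33 to 0.17) and -0.08 (-0.34 to 0.19). The smallest adjusted p among these 6 values was 0.540. The lowest bound of these intervals was that of Mef2d at P14, a level of 0.756 of CTRL.

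The composition of the MEF2 family was also alike across groups. Of the summed level per length of Mef2a, Mef2c and Mef2d, Mef2a made up 55.3% ± 4.11 in P14 CTRL, 56.4% ± 1.71 in P14 KO, 52.4% ± 5.41 in P90 CTRL and 51.5% ± 1.68 in P90 KO (SD, n = 3). Mef2d made up 32.8% to 36.9% in the group means and Mef2c 10.4% to 11.7%. Mef2b was near the floor, with group means of 0.0172 to 0.237 CPM.

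Tbx5 (chr5:119834663-119885218, plus strand) encodes a T-box factor that acts with GATA4 and NKX2-5. It measured 40.3, 27.5 and 41.4 CPM in P14 CTRL and 37.0, 37.1 and 37.2 CPM in P14 KO, then 33.3, 30.1 and 30.0 CPM in P90 CTRL and 40.8, 30.2 and 28.8 CPM in P90 KO. The KO samples fell inside the range of the CTRL samples at P14 and around it at P90. The KO difference was 0.02 (95% interval -0.34 to 0.39) at P14 and 0.10 (-0.21 to 0.41) at P90 on the log2 scale.

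Tbx20 (chr9:24720812-24774303, minus strand) encodes a T-box factor that acts both as activator and as repressor and is needed in the adult heart as well as in the embryo. It measured 241, 257 and 118 CPM in P14 CTRL and 227, 174 and 185 CPM in P14 KO. It measured 122, 125 and 112 CPM in P90 CTRL and 106, 97.5 and 116 CPM in P90 KO. P14 CTRL replicate 3 stood apart from its group and lay at the level of the P90 samples. The KO difference was -0.08 ± 0.27 at P14 (-0.68 to 0.53), the widest interval among the 10 members at this age, and -0.16 ± 0.10 at P90 (-0.38 to 0.06). Without P14 CTRL replicate 3 the P14 value was -0.35, with an adjusted p of 0.170.

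Nkx2-5 (chr17:26838665-26841565, minus strand) encodes a homeobox factor that marks heart muscle from its first appearance. It measured 42.6, 47.3 and 35.8 CPM in P14 CTRL and 43.4, 47.7 and 40.5 CPM in P14 KO. It measured 66.8, 34.6 and 41.0 CPM in P90 CTRL and 65.7, 62.3 and 48.4 CPM in P90 KO. P90 CTRL replicate 1 was above the highest KO sample, while the other P90 CTRL samples lay below all P90 KO samples. The KO difference was 0.06 ± 0.13 at P14 (-0.24 to 0.36, adjusted p = 0.832) and 0.30 ± 0.21 at P90 (-0.16 to 0.76, adjusted p = 0.513). Leaving out P90 CTRL replicate 1 raised the P90 value to 0.63, with an adjusted p of 0.111.

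Irx4 (chr13:73260497-73269620, plus strand) encodes a homeobox factor restricted to the ventricles, where it helps keep atrial genes off. It measured 62.4, 51.0 and 65.9 CPM in P14 CTRL and 55.1, 60.3 and 76.6 CPM in P14 KO, then 61.5, 52.9 and 58.4 CPM in P90 CTRL and 65.7, 58.0 and 58.8 CPM in P90 KO. The groups overlapped at both ages, with KO differences of 0.10 (95% interval -0.26 to 0.45) and 0.08 (-0.14 to 0.30) on the log2 scale. Among the 10 members it had the smallest range of group means, 0.14 on the log2 scale.

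Hand2 (chr8:57320983-57324517, plus strand) encodes a basic helix-loop-helix (bHLH) factor needed for the growth of the ventricles in the embryo, which pairs with E proteins such as those encoded by Tcf3, Tcf4 and Tcf12. It measured 14.2, 16.2 and 12.6 CPM in P14 CTRL and 21.1, 22.0 and 25.5 CPM in P14 KO. These values rested on 303, 325 and 216 reads in CTRL and 396, 461 and 506 reads in KO, so that even the lowest KO sample exceeded the highest CTRL sample in reads. At P90 it measured 10.2, 8.04 and 12.97 CPM in CTRL and 13.1, 14.1 and 17.5 CPM in KO. The adult groups did not overlap either, but P90 CTRL replicate 3 and P90 KO replicate 1 nearly touched.

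The KO difference of Hand2 was 0.67 ± 0.15 on the log2 scale at P14 (95% interval 0.33 to 1.004, adjusted p = 0.0302) and 0.51 ± 0.18 at P90 (0.10 to 0.92, adjusted p = 0.222). The P14 and P90 values differed by 0.16 ± 0.25 (-0.37 to 0.70, adjusted p = 0.775). Hand2 was higher in KO in all 14 fits made at P14, with values of 0.58 to 0.89, and passed the threshold in 9 of them. The call at P14 held without P14 CTRL replicate 2 (adjusted p = 0.0225) and was lost without P14 CTRL replicate 1 (0.0749), without P14 CTRL replicate 3 (0.0632), and without P14 KO replicate 1 (0.0700), 2 (0.0889) or 3 (0.115). Over all genes 8.59% were called, but 6.02% to 7.85% without 1 P14 CTRL sample and 0.873% to 1.58% without 1 P14 KO sample. The E protein gene Tcf4 measured 64.8, 45.6 and 56.8 CPM in P14 CTRL and 73.5, 79.95 and 105 CPM in P14 KO, at a log2 fold change of 0.63 ± 0.17 (adjusted p = 0.0623).

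The bases just upstream of the Hand2 start are shown because Hand2 was the called member. The GATA genes lay on the same side at P14 without being called, and a link to Hand2 was not tested. RefSeq promoter windows (GRCm38.p6, 250 bases before to 50 after a start) were found for 7 of the 10 members, 9 windows in all, and for Srf, but not for Gata4, Gata6 or Tbx5. The windows were searched on both strands for GATA sites (AGATAA and TGATAA, with AGATAG and TGATAG counted as well), the short T-box site AGGTGT, the NKX2-5 site TNAAGTG, MEF2 sites and CArG boxes. The sites found did not overlap one another. The Hand2 window held 2 GATA sites, in capitals in the sequence that follows, the second of them read from the opposite strand. A window of this length held at least 1 GATA site in 29.8% of 32851 mouse promoters.

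Hand2 promoter, chr8:57320733-57320982, plus strand: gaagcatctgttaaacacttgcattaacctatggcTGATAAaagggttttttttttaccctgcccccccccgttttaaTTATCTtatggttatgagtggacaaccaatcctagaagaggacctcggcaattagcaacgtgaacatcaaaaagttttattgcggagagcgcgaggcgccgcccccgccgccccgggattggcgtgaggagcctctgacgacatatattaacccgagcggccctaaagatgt

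CArG boxes, the sites of SRF itself, are shown for Srf because its own promoter held 2 of them, while 0 were found in the 9 windows of the members. CArG boxes were found in 1.63% of all windows. This says only that these letters were not in the windows searched.
Srf promoter, first CArG box, chr17:46556225-46556254, minus strand: ctggggctcgCCATATAAGGagcggcctcg
Srf promoter, second CArG box, chr17:46556205-46556234, minus strand: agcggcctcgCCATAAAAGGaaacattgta

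Among the members' other windows, the Mef2a start held a MEF2 site (3.19% of all windows) and the middle Mef2c window a short T-box site (13.7%). The sites are shown because they are those of the members' own protein families, in capitals. The windows of Mef2d, Tbx20, Nkx2-5 and Irx4 held none of the 5 motifs.
Mef2a start, MEF2 site, chr7:67372841-67372870, minus strand: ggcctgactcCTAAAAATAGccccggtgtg
Mef2c promoter, T-box site, chr13:83523430-83523455, plus strand: aagtccagtaAGGTGTggagggaagg

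**Figure D2:**
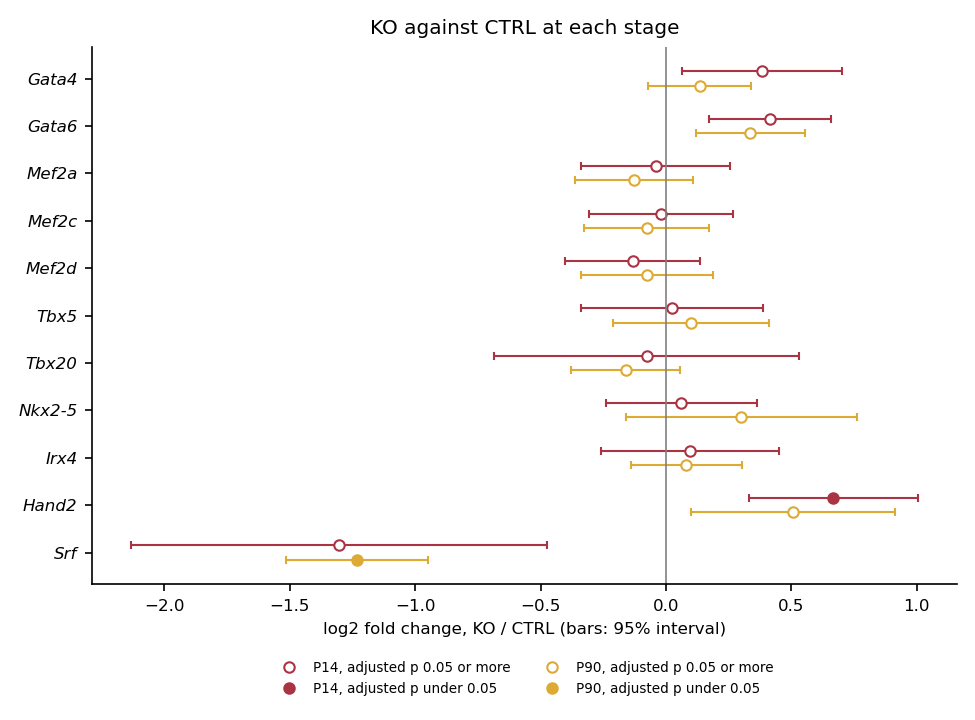
Log2 fold change of KO against CTRL (horizontal axis) for the 10 members and Srf at P14 and P90, with 95% intervals; filled points have an adjusted p under 0.05. Srf lay near -1.30 and -1.23, Hand2 at 0.67 and 0.51, and 7 members within 0.2 of 0 at P14.

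The effect of SRF loss was not shown to differ between the ages for any member. By the test of the neonatal minus the adult difference, 0 of 10 members passed the threshold, where 1.78% of all 12841 genes did. None had an unadjusted p under 0.05 in edgeR, where 19.0% of all genes did. DESeq2 called 0 members, where it called 9.32% of all genes. Gata4 had the largest difference, 0.26, followed by Nkx2-5 at -0.23 (95% interval -0.85 to 0.38), and the other 8 lay within 0.2 of 0. The intervals of Gata4, Tbx5, Tbx20, Nkx2-5 and Hand2 reached beyond 0.5 on the log2 scale in at least one direction, so a stage difference of that size lay within their intervals.

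Other genes moved with the P14 KO group and are given here beside its results. The CM marker list summed to 80280 to 89410 CPM in P14 CTRL and 57920 to 62940 CPM in P14 KO, mainly through Myh6, which had group means of 55690 and 35490 CPM. The ventricular list summed to 14370 to 19610 CPM in P14 CTRL and 7117 to 9783 CPM in P14 KO, with 3 of its 4 genes lower. The fibroblast list (116.8 to 325.8 CPM in P14 CTRL and 196.3 to 349.2 CPM in P14 KO) and the endothelial list (255.9 to 525.3 and 293.0 to 442.7 CPM) overlapped, with 0 of 7 and 0 of 8 genes tested passing the threshold. The atrial list, almost all Nppa, summed to 58.5 to 504 CPM in P14 CTRL and 306 to 1183 CPM in P14 KO, and 1 of its 5 genes tested was called higher. The smooth muscle and pericyte list summed to 1290 to 1731 CPM in P14 CTRL and 518.4 to 806.6 CPM in P14 KO, with 1 gene called lower. It was mostly Acta2 (means of 1088 and 298.2 CPM) and Abcc9 (384.3 and 282.8 CPM). Rgs5, Pdgfrb and Kcnj8 also had lower means in P14 KO, whereas Myh11 and Tagln had higher means there. The part of these changes in the values of Gata4, Gata6 and Hand2 was not tested.

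**Figure D3:**
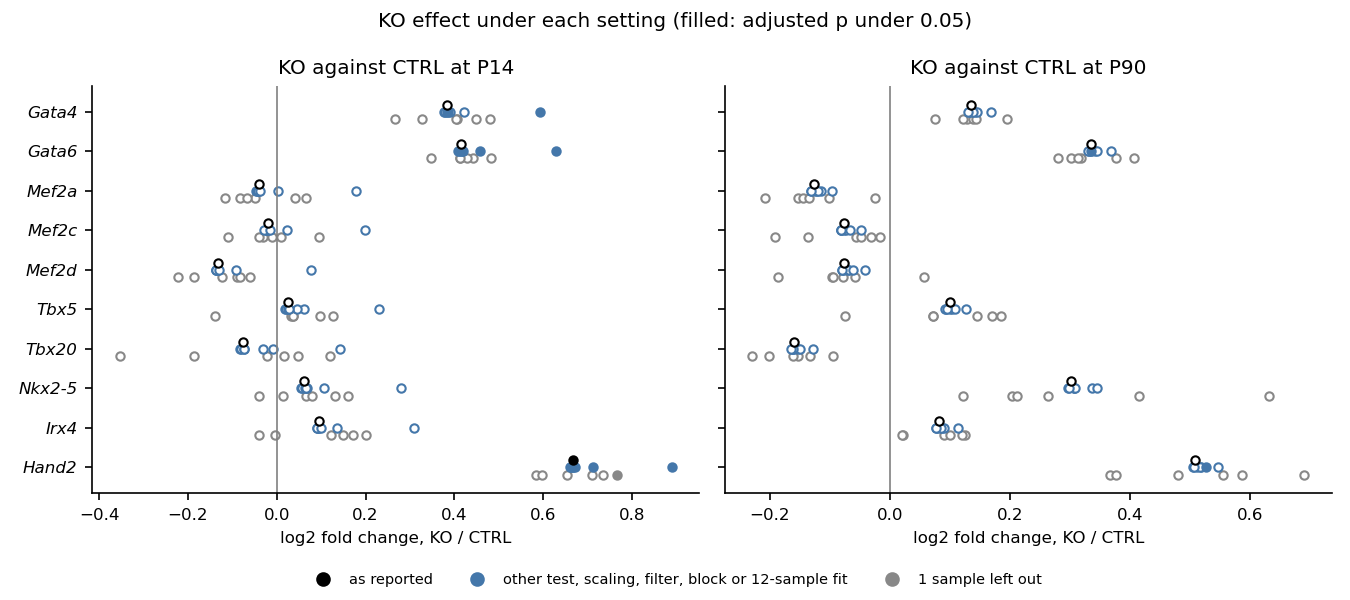
Log2 fold change of KO against CTRL (horizontal axis) for each member under each setting, at P14 and P90; black is the value as reported, blue another test, scaling, filter, block or the fit of 12 samples, grey the fits with 1 sample left out, and filled points have an adjusted p under 0.05. Gata4, Gata6 and Hand2 stayed above 0 in all 14 fits at each age, whereas the other 7 members took both signs at P14.

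The largest differences among the 10 genes were those between ages. Between P14 and P90, Gata6 fell to 0.538 of its P14 level in CTRL CMs (95% interval 0.450 to 0.644) and to 0.508 in KO CMs (0.440 to 0.586), and Tbx20 fell to 0.583 (0.396 to 0.860) and 0.548 (0.455 to 0.660). In CTRL these were the 2 of 10 members past the threshold, both lower, where 29.3% of all 12294 genes passed and 14.9% were lower. In KO 4 of 10 passed, Gata6, Tbx20 and Hand2 lower and Nkx2-5 higher, where 56.8% of all 12417 genes passed, 29.1% lower and 27.7% higher. The samples of the 2 ages did not overlap for 1 member in CTRL, Gata6, where 44.9% of all genes did not and 22.8% were lower at P90. In KO they did not overlap for 5 members, 4 lower and 1 higher, where 64.5% of all genes did not, 33.4% lower and 31.1% higher. The 2 stages were deposited in separate tables and differed in time since injection and in injection route. Age, these differences and any other in handling or sequencing therefore cannot be told apart.

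Gata6 changed by -0.89 ± 0.11 on the log2 scale in CTRL (adjusted p = 0.000861) and by -0.98 ± 0.09 in KO (adjusted p = 3.30e-05), and passed the threshold in all 14 fits of each. Tbx20 changed by -0.78 ± 0.25 in CTRL (adjusted p = 0.0432) and -0.87 ± 0.12 in KO (adjusted p = 0.000271). In CTRL its groups overlapped through P14 CTRL replicate 3, at 118 CPM. Without that sample the change was -1.05 (adjusted p = 0.000561), whereas the call was lost without P14 CTRL replicate 1 (0.147) or 2 (0.0732) and without P90 CTRL replicate 1 (0.116), 2 (0.0983) or 3 (0.144). In KO it passed in all 14 fits.

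Hand2 fell in KO by 0.62 on the log2 scale (SE 0.14, adjusted p = 0.00457), to 0.651 of its P14 level, and passed in all 14 fits. In CTRL its difference was -0.46 ± 0.20, with groups that overlapped by the highest P90 sample and an adjusted p of 0.119. The CTRL and KO changes are not shown to differ, since their difference is the same quantity as the interaction of 0.16 given for Hand2. Nkx2-5 rose in KO by 0.43 ± 0.12 on the log2 scale (1.35-fold, interval 1.11 to 1.63, adjusted p = 0.0154). Its difference was 0.19 ± 0.23 in CTRL (adjusted p = 0.564). The KO call of Nkx2-5 was lost without P90 KO replicate 2 (adjusted p = 0.0540), with all 12 samples in the fit (0.0955) and with total counts as the only scaling, where the value was 0.13.

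Gata4 differed between ages by 0.03 on the log2 scale in CTRL (95% interval -0.29 to 0.35). In KO it differed by -0.22 (-0.43 to -0.01, adjusted p = 0.0649), with all P90 KO samples below all P14 KO samples. The MEF2 genes, Tbx5 and Irx4 differed by -0.22 to 0.15 in CTRL and by -0.16 to 0.14 in KO, with adjusted p values of 0.191 or more. Tbx5 in CTRL passed only when P14 CTRL replicate 2, its lowest P14 sample, was left out (-0.41, adjusted p = 0.0278). In KO, Tbx5 passed in 2 of 14 fits, 1 of them with 1 sample left out (adjusted p = 0.0233). Gata4 passed in 2 of 14 fits in KO, and Mef2a and Irx4 in 1 each, none of these with a sample left out.

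**Figure D4:**
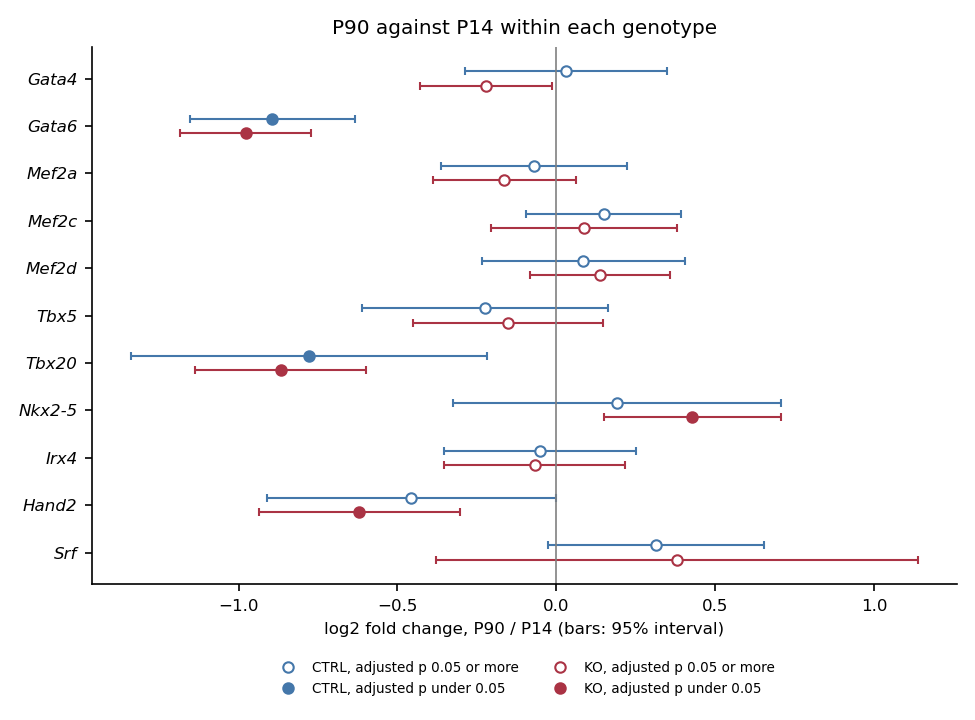
Log2 fold change of P90 against P14 (horizontal axis) for the 10 members and Srf, within CTRL and within KO, with 95% intervals; filled points have an adjusted p under 0.05. Gata6 and Tbx20 were filled and below 0 in both genotypes, Hand2 below and Nkx2-5 above 0 in KO.

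Cardiac fibroblasts are known to express Gata4, Gata6, Tbx20 and Hand2, and most fibroblast and endothelial markers had lower means at P90 in both genotypes. The 8 fibroblast markers (Col1a1, Col1a2, Col3a1, Dcn, Lum, Pdgfra, Tcf21 and Postn) summed to 116.8 to 349.2 CPM in the P14 samples and 52.1 to 73.3 CPM in the P90 samples. Of the 7 tested, 5 fell with age in CTRL and 4 in KO. Pdgfra and Tcf21 had the lowest means of the list. Pdgfra had means of 2.98 CPM at P14 and 2.64 CPM at P90 in CTRL, and 2.35 and 2.02 CPM in KO. Tcf21 had means of 0.300 and 0.282 CPM in CTRL and 0.294 and 0.282 CPM in KO, near the floor of 3 counts. The means of both genes were thus only slightly lower at P90. Those of Col1a1, Col1a2, Col3a1, Dcn, Lum and Postn were clearly lower at P90 in both genotypes. Dcn, for example, had 33.2 and 18.4 CPM in CTRL and 30.3 and 18.8 CPM in KO. Lum had 8.36 and 2.92 CPM in CTRL and 7.94 and 2.93 CPM in KO. The 8 endothelial markers summed to 255.9 to 525.3 CPM at P14 and 233.9 to 357.7 CPM at P90, which overlapped. Of the 8, 5 passed the threshold as lower at P90 in CTRL and 4 in KO. In KO, Kdr (82.0 CPM at P14, 97.8 CPM at P90) and Fabp4 (68.4 and 81.2 CPM) had higher means at P90. The part of these cells in the falls of Gata6, Tbx20 and Hand2 was not tested. In sorted bulk samples fewer cells of a type and less RNA per cell cannot be told apart.

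Ordered by level per length, Gata4 led in every group, with a mean RPKM of 86.5 in P14 CTRL, 113 in P14 KO, 88.2 in P90 CTRL and 96.6 in P90 KO. In P14 CTRL the order went on with Mef2a (64.8), Gata6 (50.1), Mef2d (40.1), Tbx20 (29.8), Nkx2-5 (27.5), Irx4 (23.0), Mef2c (12.2), Tbx5 (9.24) and Hand2 (6.43). In this group Mef2d and Tbx20, Tbx20 and Nkx2-5, Nkx2-5 and Irx4, and Tbx5 and Hand2 were neighbours whose samples overlapped. Among the 21268 genes with any read in the 12 samples, Gata4 stood at the percentile 96.6 and Hand2 at 71.0 in P14 CTRL. All of these factor genes were thus in the upper part of that set. It is wider than the 12546 genes that passed the low-count filter at P14.

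The order differed between groups. In P14 KO, Gata6 (67.0) stood just above Mef2a (63.1), Nkx2-5 (28.8) above Tbx20 (28.3) and Hand2 (10.2) above Tbx5 (9.41), each pair with overlapping samples. In P90 CTRL, Gata6 (26.9) had fallen below Mef2d (42.5) and Nkx2-5 (31.2), and Tbx20 (17.4) below Irx4 (22.1). In P90 KO the order was the same as in P90 CTRL, from Gata4 through Mef2a (56.2), Mef2d (40.2), Nkx2-5 (38.6), Gata6 (33.9), Irx4 (23.4), Tbx20 (15.5), Mef2c (12.7) and Tbx5 (8.44) to Hand2 (6.67). The samples of Nkx2-5 overlapped those of both Mef2d and Gata6 in each P90 group.

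**Figure D5:**
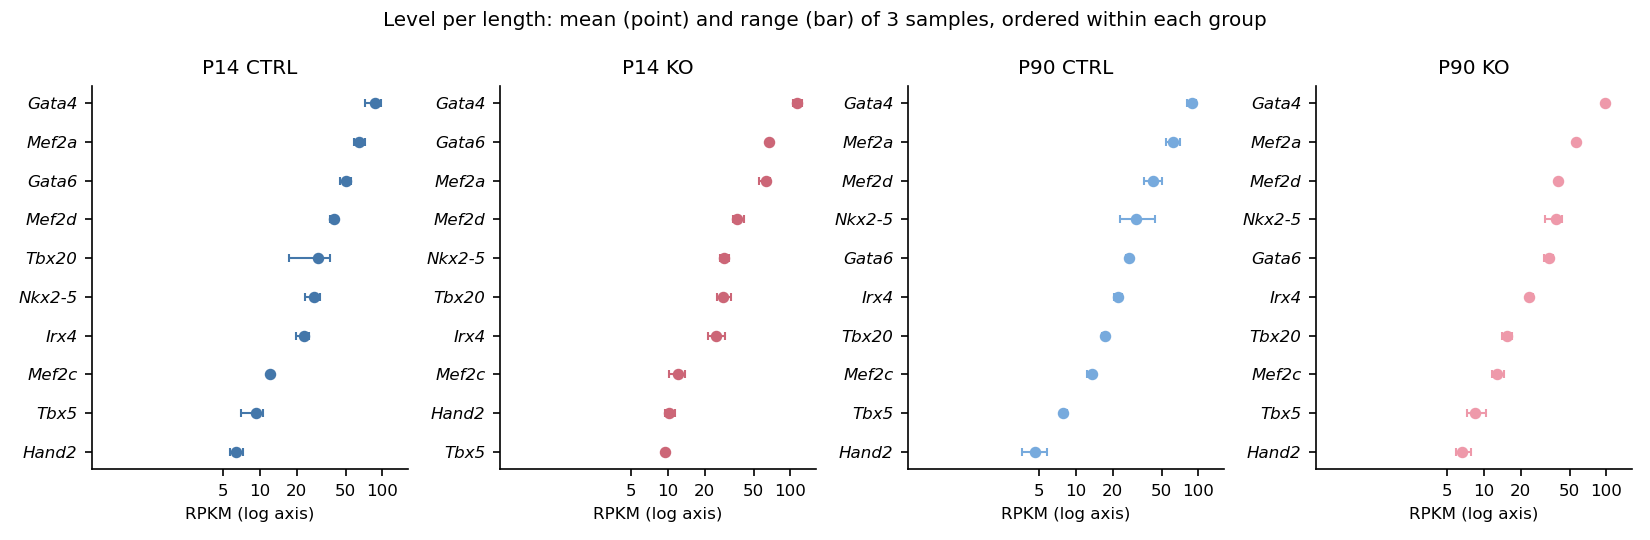
Level per length (RPKM, log axis) of the 10 genes in each group, ordered by the group mean; points are means and bars the range of 3 samples. Gata4 was first in every group, and Gata6 stood above Mef2d in both P14 groups but below it in both P90 groups.

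Genes of the same pathways were counted in 8 lists of 71 genes in all, of which 61 were tested at P14. There 2 passed the threshold as higher and 6 as lower, 8 of 61 beside the 8.59% of all genes. Both that rose encode cofactors of SRF. Myocd (myocardin, a coactivator) measured 207, 190 and 159 CPM in P14 CTRL and 375, 289 and 349 CPM in P14 KO, a log2 fold change of 0.86 ± 0.14 (adjusted p = 0.0153). Mkl2, a myocardin-related factor, measured 40.9, 30.0 and 35.6 CPM in P14 CTRL and 52.0, 49.7 and 51.1 CPM in P14 KO, a change of 0.52 ± 0.13 (adjusted p = 0.0443). KO samples of both lay above all CTRL samples. The Myocd call was lost without P14 KO replicate 1 (0.0554) or 3 (0.0636), and that of Mkl2 without P14 CTRL replicate 2 (0.0587) or 3 (0.0811) or any of P14 KO replicates 1, 2 and 3 (0.143, 0.136 and 0.148).

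The regulators of MEF2 included 1 called gene of 8 tested at P14. Mapk14, the p38 alpha kinase that phosphorylates MEF2 proteins, measured 112, 114 and 107 CPM in P14 CTRL and 85.5, 78.8 and 78.2 CPM in P14 KO, a change of -0.46 ± 0.10 (adjusted p = 0.0255). Its samples did not overlap. The call was lost with total counts as the only scaling (-0.25, adjusted p = 0.105), without P14 CTRL replicate 1 (0.0572), and without P14 KO replicate 1 (0.0653), 2 (0.116) or 3 (0.124). At P14 no gene passed among 3 tested GATA cofactors and relatives, 3 other T-box genes, 10 other homeobox genes, 5 bHLH partners and 5 chromatin partners.

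Of 18 genes known to lie downstream of these factors, many of them also known targets of SRF, 5 were lower in P14 KO and 0 higher, where 4.60% of all genes were lower and 3.99% higher. The median log2 fold change was -0.30 in the list and 0.00 over all genes. These were the contractile genes Tnnc1 (troponin C, -1.48 ± 0.24, adjusted p = 0.0148), Actc1 (cardiac actin, -1.39 ± 0.24, adjusted p = 0.0168) and Myh6 (myosin heavy chain, -0.65 ± 0.16, adjusted p = 0.0466), the metabolic gene Ckm (muscle creatine kinase, -1.96 ± 0.37, adjusted p = 0.0200) and the calcium pump gene Atp2a2 (-0.62 ± 0.14, adjusted p = 0.0361). Tnnc1, Actc1 and Ckm lost the call without P14 KO replicate 1 or 2 (adjusted p of 0.0532 to 0.0738), and Atp2a2 lost it without any 1 of the 6 samples (0.0559 to 0.184). In adult CMs 3 of 60 related genes passed, all lower and all from the same list, where 0.390% of all genes passed. They were the sodium-calcium exchanger gene Slc8a1 (-0.75 ± 0.09, adjusted p = 0.00755), Ckm (-0.99 ± 0.12, adjusted p = 0.00755) and Actc1 (-0.79 ± 0.14, adjusted p = 0.0494). Slc8a1 measured 185, 211 and 204 CPM in P90 CTRL and 120, 114 and 121 CPM in P90 KO. Without P90 KO replicate 2 the adult calls were lost for Slc8a1 (0.0695), Ckm (0.0594) and Actc1 (0.225), and that of Actc1 also without P90 CTRL replicate 1 (0.0921), 2 (0.0592) or 3 (0.153) or P90 KO replicate 3 (0.0702). The fit without P90 KO replicate 2 called 0.0507% of all genes.

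Between ages, 18 of the 61 related genes passed in CTRL, 6 higher and 12 lower (29.3% of all genes passed), and 35 in KO, 12 higher and 23 lower (56.8% of all genes). The shares of the lists were thus close to those of all genes. In CTRL the higher ones included Atp2a2 (0.61 ± 0.11), the natriuretic peptide convertase gene Corin (0.62 ± 0.12) and the natriuretic peptide gene Nppb (1.49 ± 0.33), each known to lie downstream of the members. The lower ones included Myocd (-0.70 ± 0.12), the Hippo pathway coactivator gene Wwtr1 (-0.54 ± 0.13), Tcf4 (-0.73 ± 0.15) and Smyd1 (-1.58 ± 0.30), a histone methyltransferase gene of muscle. All of these had adjusted p values of 0.0125 or less, and the call was lost only for Wwtr1, without P14 CTRL replicate 1 (0.0538), P90 CTRL replicate 1 (0.0573) or P90 CTRL replicate 3 (0.0678). In KO the bHLH partners Tcf4 (-1.21), Tcf12 (-0.87) and Tcf3 (-0.61) fell, as did the T-box gene Tbx3 (-0.92) and the homeobox genes Irx3 (-1.003) and Irx5 (-0.59), with adjusted p values of 0.00520 or less. The KO and CTRL values at an age share samples with the comparisons of genotype.

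The genes nearest in pattern were sought for the 3 members with the widest range of group means, by the root mean square difference in centred log2 CPM over the 12 samples among 12841 genes. For Gata6, whose group means spanned 1.31 on the log2 scale, they were Haus8 (difference 0.11), Ifrd1 (0.12) and Rbms1 (0.12). For Hand2 (range 1.15) they were 1700019E19Rik (0.16), Hsd17b12 (0.18) and 5430417L22Rik (0.18), and for Tbx20 (range 0.87) Picalm (0.17), Hsf2 (0.19) and Ift140 (0.20). Haus8 had mean levels of 49.8 CPM in P14 CTRL, 71.7 in P14 KO, 30.1 in P90 CTRL and 34.9 in P90 KO, the same order of groups as Gata6.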

How the data were processed

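RNA of sorted cardiomyocytes was measured in 12 samples, 3 per group, grouped by their titles. The authors aligned single-end reads of SMART-Seq v4 and Nextera XT libraries to mm10 and counted them per gene, and they deposited raw counts in 2 tables, one per stage. Per the submitters' processing notes the tools were CASAVA 1.8, STAR 2.5.3a and featureCounts of Subread 1.5.2. How strand and reads with several matches were handled is not given in the sources used here. Exons of the 10 genes overlapped no other gene of the tables.

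These counts went through edgeR 4.0.16 (R 4.3.3). Low genes were removed with filterByExpr and TMM factors set the library sizes. For 2 groups at a time (6 samples), edgeR's quasi-likelihood test gave p-values, adjusted by Benjamini-Hochberg over all genes tested and read at 0.05. The neonatal minus adult KO difference was fitted on all 12 samples. Errors of log2 fold changes are standard errors, and intervals are 95% intervals of the same fit. CPM and RPKM came from the same counts, TMM factors over 12 samples and the deposited exon lengths. The labels call the samples biological replicates. The script was tested on simulated data.

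Alternatives were DESeq2 1.42.0 (the authors' test), RLE, upper-quartile and total-count scaling, no filter, a replicate block, 1 fit of 12 samples, shown per gene after seeing the data, and leaving out each sample. The members and the lists of related and marker genes were chosen with earlier results of these data known. Genes named are the 10 members, Srf, at most 4 called genes with a mean of at least 1 CPM per related list and comparison, marker genes, and the 3 genes nearest in pattern to the 3 members of widest range. Tcf4 at P14 and Mef2b were named outside this rule, after their values were seen. Promoter sequences are RefSeq's. Some results are not reported here.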

Additional observations from a re-analysis of the deposited data

Results flagged for a closer look

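Tnni3, the cardiac troponin I gene and a known target of the GATA factors, was the only gene of the 10 members and 61 tested related genes for which the test of the neonatal minus the adult KO difference passed the threshold, at a difference of -0.853 on the log2 scale (SE 0.19, adjusted p = 0.0437 in edgeR's quasi-likelihood test). It measured 4960, 6952 and 5968 CPM in P14 CTRL and 3916, 4438 and 4089 CPM in P14 KO, and all KO samples were lower. At P90 it measured 6858, 5708 and 7047 CPM in CTRL and 8875, 8369 and 7423 CPM in KO, and all KO samples were higher. Neither stage passed on its own, at -0.53 ± 0.15 (adjusted p = 0.0698) and 0.34 ± 0.11 (adjusted p = 0.175). The call was lost in 10 of the 12 fits that left out 1 sample, where the adjusted p ranged from 0.0178 to 0.123. These 12 fits called 0.0305% to 2.89% of all genes, in place of 1.78%.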

How the results depend on the processing

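The count of members past the threshold at P14 was 1 as reported, 2 with DESeq2, 2 with upper-quartile factors, 3 with total counts, 3 with all 12 samples in the fit and 0 to 1 with 1 sample left out. In the same order, the share of all genes called was 8.59%, 14.0%, 9.01%, 13.7%, 16.3% and 0.873% to 7.85%. Gata6 was the added gene in the counts of 2, and Gata4 joined it in the counts of 3. The CTRL comparison of ages gave 1 to 2 with 1 sample left out, where 16.5% to 38.2% of all genes passed. The KO comparison of ages gave 7 with total counts in place of 4, with Nkx2-5 lost and Gata4, Mef2a, Tbx5 and Irx4 added, all lower. That fit called 60.9% of all genes, in place of 56.8%. With total counts the median log2 fold change of all genes was 0.22 at P14, 0.17 in the interaction, -0.13 in CTRL and -0.32 in KO with age, in place of 0.00, -0.01, -0.01 and -0.03. The interaction count was 0 in every fit, where 0.0305% to 9.32% of all genes passed.

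A block on the replicate number gave 2 members at P14 and 2 at P90, Gata6 (adjusted p = 0.0490 and 0.0493) and Hand2 each time. It gave 0 in the interaction, 2 in CTRL and 4 in KO with age. Of all genes the block called 12.2% at P14, 5.55% at P90, 5.35% in the interaction, 25.5% in CTRL and 53.6% in KO with age. Correlations of same-numbered deviations were 0.05, 0.15 and 0.36 at P14 and 0.18, -0.000342 and 0.05 at P90. They were not all over 0.1, and P14 CTRL replicate 1 correlated better with P14 KO replicate 2 (0.08). Pairing by number was therefore not assumed. The labels do not say whether same-numbered samples were handled together, and these correlations cannot exclude it.

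All sign changes were in values not past the threshold. With upper-quartile factors Mef2a (0.0026) and Mef2c (0.023) at P14 and Gata4 in CTRL with age (-0.033) changed sign. With total counts Mef2a (0.18), Mef2c (0.20), Mef2d (0.077) and Tbx20 (0.14) did so at P14, Mef2d (0.12), Tbx5 (0.10) and Srf (0.10) in the interaction, Gata4 (-0.090) and Mef2d (-0.035) in CTRL with age, and Mef2c (-0.21) and Mef2d (-0.15) in KO with age. Leaving out 1 sample gave log2 ranges that crossed 0 at P14 for Mef2a (-0.12 to 0.065), Mef2c (-0.11 to 0.094), Tbx5 (-0.14 to 0.13), Tbx20 (-0.35 to 0.12), Nkx2-5 (-0.040 to 0.16) and Irx4 (-0.039 to 0.20). At P90 it did so for Mef2d (-0.19 to 0.057) and Tbx5 (-0.076 to 0.18). In the interaction it did so for Mef2a (-0.00021 to 0.19), Mef2c (-0.057 to 0.19), Mef2d (-0.18 to 0.068), Tbx5 (-0.23 to 0.11), Tbx20 (-0.17 to 0.29), Irx4 (-0.15 to 0.12), Hand2 (-0.0076 to 0.32) and Srf (-0.37 to 0.29). With age it did so in CTRL for Gata4 (-0.10 to 0.13), Mef2a (-0.18 to 0.021), Mef2d (-0.055 to 0.19), Nkx2-5 (-0.14 to 0.37) and Irx4 (-0.17 to 0.032), and in KO for Mef2c (-0.015 to 0.19) and Irx4 (-0.16 to 0.083). The cause was not tested. Leaving out 1 sample also changed the share of all genes called, at P14 from 8.59% down to 0.873% without P14 KO replicate 2. At P90 it gave 0.0507% to 0.422% in place of 0.390%, and in CTRL with age 16.5% to 38.2% in place of 29.3%. A call lost in such a fit is therefore not by itself particular to that gene. With 3 samples a group, calls lost when 1 sample was left out, as for Hand2 at P14 and Tbx20 in CTRL, are less certain than those of Gata6 with age.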
